A study of Mus musculus with 2 samples.

Results

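The EGF receptor family and its ligands were followed in bulk mRNA sequencing of neonatal mouse skin wounds. The 10 genes were chosen by symbol, as ligands and receptors that drive keratinocyte migration and growth, out of 24346 gene symbols listed, and all 10 were found in both libraries. They are the ligand genes Areg, Ereg, Hbegf, Tgfa, Btc, Epgn and Egf, and the receptor genes Egfr, Erbb2 and Erbb3. Full-thickness incisions of 1 cm were made in the dorsal skin of 1-day-old C57BL/6J pups, WT or PU.1-/-, and the wounds were harvested 24 h later. The methods describe incisional wounds, whereas the design text calls them excisional. PU.1, the product of Spi1, is a transcription factor needed to form several leukocyte lineages, and PU.1-/- pups are described as having no mast cells, neutrophils, T cells or macrophages, so that the comparison asks which wound transcripts differ when these leukocytes are missing. There was 1 library per genotype and no replicate check, and the sources do not say how many pups each library holds. The deletion is carried in every cell of the pup, so that an effect on skin cells directly and an effect through leukocytes cannot be told apart.

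Ligands of this family are made as membrane-bound precursors that are cut at the cell surface, and the freed EGF domain binds a receptor tyrosine kinase on the same or a nearby cell. Amphiregulin (Areg), TGFα (Tgfa), epigen (Epgn) and EGF (Egf) bind EGFR, whereas HB-EGF (Hbegf), betacellulin (Btc) and epiregulin (Ereg) bind EGFR and also ERBB4. ERBB2 has no known ligand and acts as a partner of the other receptors, and ERBB3, a neuregulin receptor, has a nearly inactive kinase and signals through that partnership. In skin, EGFR signalling promotes the proliferation and migration of keratinocytes over a wound, and its ligands are made by keratinocytes themselves as well as by leukocytes and mesenchymal cells.

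Levels are given in FPKM as the authors deposited them, a read density corrected for transcript length and library depth, so that levels of different genes are compared per length. The threshold for calling a gene lower or higher was a 2-fold difference between the libraries, with values below 0.1 FPKM raised to 0.1. Each interval is an exact 95% counting interval from estimated reads. It covers counting error only, not the difference between animals, and PCR copies of a molecule are not separated. The depth was estimated at about 13800000 fragments for WT and 15900000 for PU.1-/-. The targeted gene Spi1 had 35.4 FPKM in WT against 1.45 FPKM without PU.1. The libraries also differed in sex-linked genes, with 4 Y-linked genes at 2.16 to 38.5 FPKM in WT and listed at 0 in PU.1-/-, and Xist listed at 0 in WT and at 9.48 FPKM in PU.1-/-. This is the pattern of a male WT library and a female PU.1-/- library. The sources do not state the sex of the pups. Genotype and sex cannot be told apart in any value below.

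Epigen was the ligand with the highest level in the WT wound and the only one of the 10 genes called lower in the PU.1-/- wound. Of the other ligands, Egf was called higher at a very low level, Btc, Areg and Ereg were moderately higher, and Hbegf and Tgfa differed little. The receptors Egfr and Erbb2 were at nearly equal levels in both wounds, and Erbb3 was moderately higher without PU.1. In all, 1 of 10 genes was called lower, where 4.34% of all listed genes were called lower, and 1 of 10 was called higher, where 2.32% of all listed genes were called higher. Without a fold rule, 8 of the 10 genes had a log2 ratio (PU.1-/- over WT) above 0, against 6526 of the 13237 genes of at least 1 FPKM in either library. After rescaling to equal FPKM sums, which puts Tgfa above 0, these numbers were 9 and 7463. The median log2 ratio was 0.21 over the 10 genes and -0.00415 over those 13237 genes. Egf, below 1 FPKM in both libraries and above its WT level, is counted among the 10 genes but not among the 13237.

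**Figure D1:**
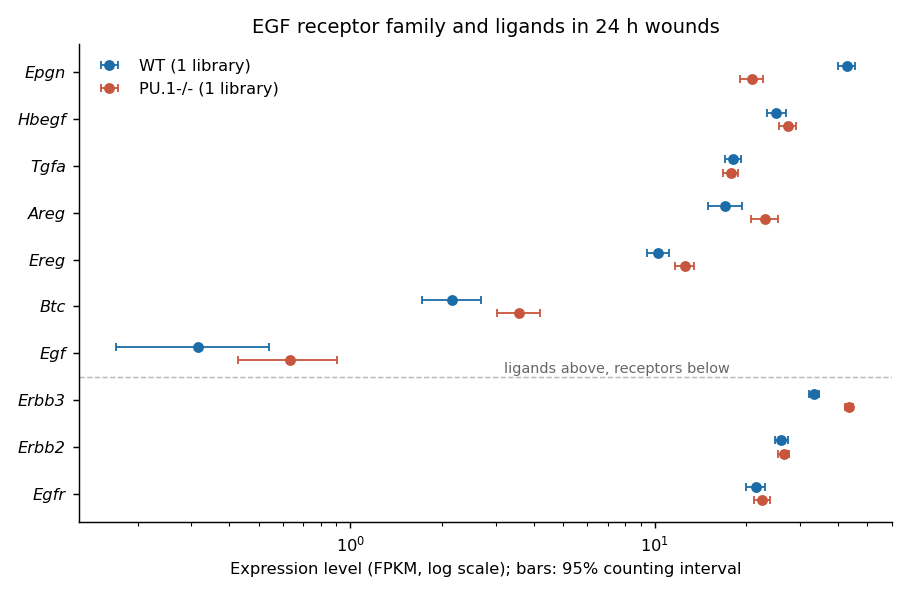
Expression level in FPKM (log axis) of the 7 ligand genes and 3 receptor genes in the WT and PU.1-/- wound library, with bars for the 95% counting interval. Epgn lies at 42.8 and 20.9 FPKM with intervals that do not overlap, while the points of Tgfa, Erbb2 and Egfr nearly coincide.

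Epgn had 42.8 FPKM in the WT library (interval 40.1 to 45.7, about 922 reads) and 20.9 FPKM in the PU.1-/- library (19.1 to 22.8, about 517 reads). Its PU.1-/- level was 0.488 times the WT level (interval 0.437 to 0.544), a log2 ratio of -1.04. This lies close to the threshold. As WT over PU.1-/- the interval was 1.84 to 2.29 and spans 2, so that counting error alone leaves its side of the threshold undecided. After rescaling the libraries to equal FPKM sums the WT over PU.1-/- ratio was 1.99 and Epgn was no longer called. Among genes whose higher value lay between 10 and 100 FPKM, 2.61% were called lower. The log2 ratio of Epgn stood at percentile 4.36 of the 13237 genes of at least 1 FPKM. Markers of keratinocytes, the cells in which epigen is best known, had medians on the other side of 0. Among the genes of at least 1 FPKM, 49.3% had a log2 ratio above 0. Basal keratinocyte markers had a median log2 ratio of 0.23, with 8 of 8 above 0, and suprabasal markers a median of 0.15, with 4 of 7 above 0. Epgn therefore lay 1.26 below the basal and 1.19 below the suprabasal median on the log2 scale.

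Heparin-binding EGF-like growth factor, encoded by Hbegf, is released early after wounding and is made by keratinocytes and macrophages. Hbegf had 25.1 FPKM in WT (23.3 to 26.9) against 27.4 FPKM without PU.1 (25.7 to 29.2). The ratio of 1.09 had an interval of 0.992 to 1.20, so that the libraries did not differ beyond counting error. Tgfa, which encodes a ligand of keratinocytes known for its part in hair shape, had 18 FPKM in WT (17.0 to 19.1) against 17.8 FPKM without PU.1 (16.8 to 18.8), a ratio of 0.985 (0.906 to 1.07). For both genes the intervals of the libraries overlap.

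Amphiregulin, a ligand of low affinity for EGFR made by epithelium and by several types of leukocyte, was higher in the PU.1-/- wound. Areg had 17.0 FPKM in WT (14.9 to 19.3, about 238 reads) against 23.0 FPKM without PU.1 (20.7 to 25.4, about 369 reads), a ratio of 1.35 (1.14 to 1.59). Ereg, which encodes epiregulin, had 10.3 FPKM in WT (9.43 to 11.2) against 12.5 FPKM without PU.1 (11.7 to 13.4), a ratio of 1.22 (1.09 to 1.36). For both genes the intervals of the libraries did not overlap, and neither reached the threshold. The share of all genes with separate intervals was not counted. Small differences also separate where reads are many, as for the keratin gene Krt17 at a ratio of 0.926 (0.908 to 0.945). The log2 ratio of Areg, 0.43, stood at percentile 90.7 of the genes of at least 1 FPKM, and that of Ereg, 0.29, at percentile 83.9.

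Btc and Egf were the ligands of lowest level. Betacellulin (Btc) had 2.16 FPKM in WT (1.71 to 2.69, about 80 reads) against 3.57 FPKM without PU.1 (3.03 to 4.19, about 152 reads), a ratio of 1.65 (1.25 to 2.2). Its interval reaches past 2, so that counting error alone leaves its side of the threshold undecided. At a threshold of 1.5 Btc and Egf were both called higher, where 5.79% of all listed genes were, and Epgn remained the only 1 of the 10 called lower, where 7.67% were. Egf, the founding ligand of the family, had 0.317 FPKM in WT (0.169 to 0.540) against 0.634 FPKM without PU.1 (0.428 to 0.903), a ratio of 2.0 (1.02 to 4.16). These values stand for about 13 and 30 reads with the shortest of the 3 RefSeq-linked transcripts of Egf and for 19.9 and 45.8 reads with the longest, and the intervals of the libraries overlap. Among genes whose higher value was below 1 FPKM, 3.05% were called higher. With a pseudocount of 0.1 FPKM Egf was no longer called.

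The order of the ligands changed at the top. In WT it ran from Epgn through Hbegf, Tgfa, Areg, Ereg and Btc to Egf, and the intervals of Tgfa and Areg overlapped while all other neighbours among the ligands were separate. In PU.1-/- it ran from Hbegf through Areg, Epgn, Tgfa, Ereg and Btc to Egf, and among neighbouring ligands only the intervals of Areg and Epgn overlapped. Epgn made up 37.0% of the summed FPKM of the 7 ligands in WT and 19.8% in PU.1-/-. Areg made up 14.7% and 21.7%, and Hbegf 21.7% and 25.9%. The ligand sum was 116 FPKM in WT against 106 FPKM without PU.1, a ratio of 0.914. Without Epgn the sum of the other ligands was 72.9 FPKM in WT against 84.8 FPKM without PU.1, a ratio of 1.16. In the sum, the difference in Epgn alone was larger than that of the other ligands together.

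The receptor transcripts stood at levels like those of the main ligands. Erbb3 had the highest level, with 33.3 FPKM in WT (32.1 to 34.6) against 43.6 FPKM without PU.1 (42.3 to 45.0), a ratio of 1.31 (1.25 to 1.37). Erbb2 had 26.1 FPKM in WT (24.9 to 27.3) against 26.5 FPKM without PU.1 (25.4 to 27.7), a ratio of 1.02 (0.953 to 1.08). Egfr had 21.5 FPKM in WT (20.0 to 23.0) against 22.5 FPKM without PU.1 (21.1 to 24.0), a ratio of 1.05 (0.955 to 1.15). Only for Erbb3 did the receptor intervals of the libraries fail to overlap. Its intervals rest on about 2676 and 4022 reads and are narrow, and the share of all genes with separate intervals was not counted. The log2 ratio of Erbb3, 0.39, stood at percentile 89.1 of the genes of at least 1 FPKM. Erbb3 is also a receptor of Schwann cells and melanocytes. Schwann cell markers had a median log2 ratio of 0.64, with 6 of 6 above 0 and a summed level of 29.4 FPKM in WT against 42.6 FPKM without PU.1. Melanocyte markers had a median of 0.16, with 5 of 6 above 0 and sums of 212 and 236 FPKM. Among the genes of at least 1 FPKM, 49.3% had a log2 ratio above 0. The part of either cell type in the Erbb3 difference was not tested, and more cells of a type and more RNA per cell cannot be told apart in bulk tissue.

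**Figure D2:**
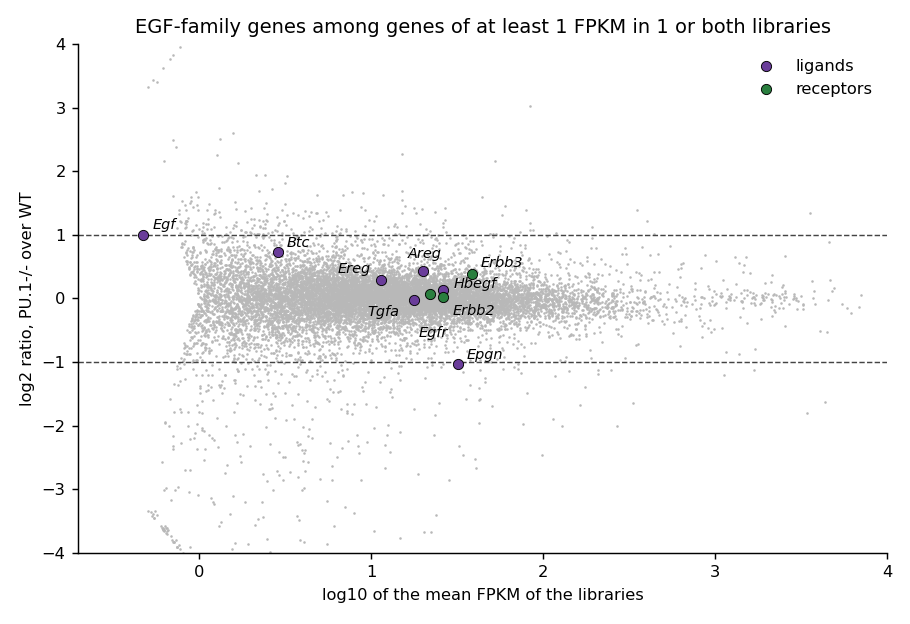
Log2 ratio (PU.1-/- over WT) against the log10 of the mean FPKM for 13237 genes of at least 1 FPKM in 1 or both libraries (grey, with 244 genes beyond the log2 axis and 1 beyond the level axis) and for the 10 EGF-family genes. Dashed lines mark 2-fold. Epgn lies just below the lower line at -1.04, Egf, at under 1 FPKM in both libraries, lies on the upper line, and the other 8 genes lie between -0.02 and 0.73.

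The genes of 4 ligands lie next to each other on chromosome 5 of mm10. Epgn lies at chr5:91027517-91035212, Ereg at chr5:91074617-91093649, Areg at chr5:91139599-91148432 and Btc at chr5:91357261-91402994, with 0 other protein-coding RefSeq genes between them over 375 kb. These neighbours did not move together, with log2 ratios of -1.04 for Epgn, 0.29 for Ereg, 0.43 for Areg and 0.73 for Btc. On the side of Epgn lies Mthfd2l, an enzyme gene of folate metabolism, with 5.42 FPKM in WT against 5.76 FPKM without PU.1. Beyond it lies a block of CXC chemokine and platelet factor genes. Their log2 ratios were -8.37 for Ppbp, -8.08 for Pf4, -4.10 for Cxcl3, -1.89 for Cxcl2, -0.14 for Cxcl5 and 0.16 for Cxcl1. Cxcl15 was below 0.1 FPKM in both libraries. On the side of Btc lies Parm1, with 8.49 FPKM in WT against 15.3 FPKM without PU.1.

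**Figure D3:**
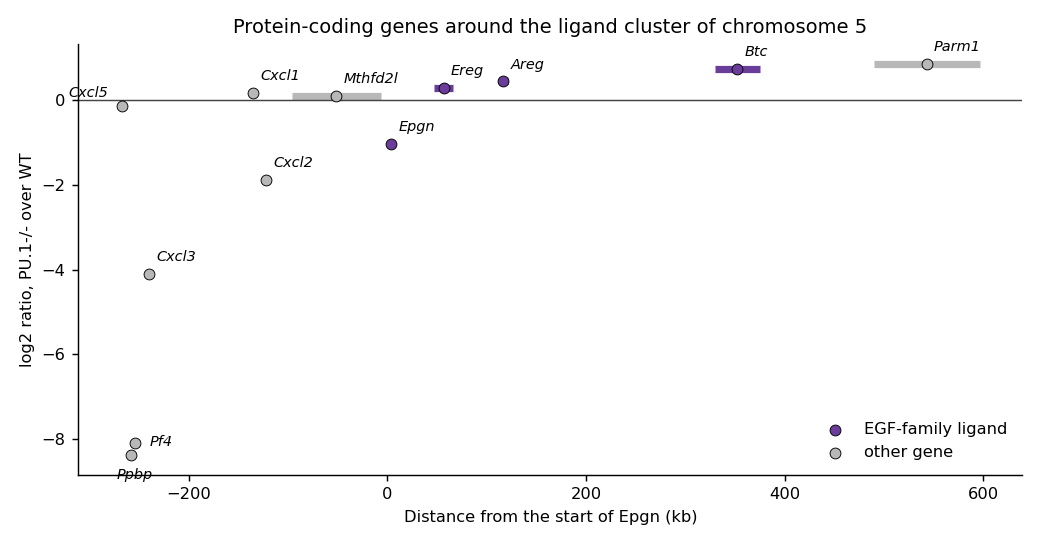
Log2 ratio (PU.1-/- over WT) of protein-coding genes against their distance in kb from the start of Epgn, with bars for the extent of each gene. Of the ligand genes (purple) Epgn lies at -1.04 and Ereg, Areg and Btc lie at 0.29 to 0.73, while the chemokine and platelet factor genes (grey, left) lie between -8.37 and 0.16. Genes below 0.1 FPKM in both libraries are not drawn.

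The promoters of 3 genes of this neighbourhood are shown. They belong to the ligand called lower and to 2 that were above their WT level without reaching the threshold. Each is the 250 bases before the RefSeq start on GRCm38.p6, 5′ to 3′ on the strand of the gene, with motif matches in capitals. The positions are chr5:91027267-91027516 on the plus strand for Epgn, chr5:91139349-91139598 on the plus strand for Areg, and chr5:91402995-91403244 on the minus strand for Btc.
Epgn: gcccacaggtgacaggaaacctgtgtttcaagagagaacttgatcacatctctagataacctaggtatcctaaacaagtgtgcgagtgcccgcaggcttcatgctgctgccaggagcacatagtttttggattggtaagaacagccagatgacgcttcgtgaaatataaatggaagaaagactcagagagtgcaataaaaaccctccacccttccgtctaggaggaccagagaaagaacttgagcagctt
Areg: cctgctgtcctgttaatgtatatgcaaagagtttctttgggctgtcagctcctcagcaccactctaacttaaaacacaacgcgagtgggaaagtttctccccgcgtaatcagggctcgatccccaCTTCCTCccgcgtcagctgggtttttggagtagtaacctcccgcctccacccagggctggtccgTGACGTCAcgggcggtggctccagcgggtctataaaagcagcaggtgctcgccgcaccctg
Btc: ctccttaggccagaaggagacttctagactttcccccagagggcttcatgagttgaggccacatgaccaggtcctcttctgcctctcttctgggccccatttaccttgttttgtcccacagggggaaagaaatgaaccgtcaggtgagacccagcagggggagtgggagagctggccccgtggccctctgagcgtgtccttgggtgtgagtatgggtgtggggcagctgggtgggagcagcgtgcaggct
The motifs searched on both strands were GAGGAAG, a site of PU.1 and other ETS factors, TGAGTCA, a site of AP-1, and TGACGTC, a site of CREB. Of all 32851 promoter windows in the table, 10.6% hold the first, 4.46% the second and 2.78% the third. The Areg window holds the ETS letters on the opposite strand, with the first base 125 bases before the start, and the CREB letters on both strands in 1 palindrome, from 61 bases before the start. The windows of Epgn and Btc hold none of these letters. A promoter window was found for 7 of the 10 genes and for none of Ereg, Hbegf and Erbb3. Besides Areg, only Egfr had a match, to the ETS letters.

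The other genes have these positions on mm10: Egf at chr3:129677574-129755322, Tgfa at chr6:86195038-86275744, Hbegf at chr18:36504927-36515805, Erbb3 at chr10:128567523-128589635, Egfr at chr11:16752203-16913907 and Erbb2 at chr11:98412484-98437716. Egfr and Erbb2 share a chromosome and differed little between the libraries. With 2 libraries a pattern is a single ratio, and the number of other genes of at least 1 FPKM within 0.1 of a gene's log2 ratio ranged from 95 for Epgn and 266 for Btc to 3868 for Tgfa.

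Of the genes around the pathway, 78 were measured in 5 lists, of which 4 were called lower, near the 4.34% of all listed genes, and 0 higher, beside 2.32% of all listed genes. The remaining receptor and the neuregulins, the ligands of ERBB3 and ERBB4, were lowly expressed in these wounds. Erbb4 was listed at 0 in WT and at 0.0155 FPKM in PU.1-/-, about 3 reads, so no ratio is given. Nrg1, an axon-derived and mesenchymal ligand, had 3.50 FPKM in WT against 2.15 FPKM without PU.1, a ratio of 0.615 (0.453 to 0.831). Nrg4 had 2.06 and 1.21 FPKM, a ratio of 0.586 (0.365 to 0.930). Nrg2 was called lower, from 0.467 to 0.0957 FPKM, on about 18 and 4 reads. Nrg3 was at 0.0192 FPKM in WT, about 1 read with its longest transcript, and listed at 0 in PU.1-/-. The Erbb3 transcript was higher in the library in which the transcripts of its ligands Nrg1 and Nrg2 were lower. Neither Erbb3 nor Nrg1 reached the threshold, Nrg2 rests on few reads, and a link between receptor and ligand levels was not tested.

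Release of the ligands depends on metalloproteases of the ADAM family, on the iRhom proteins that bring ADAM17 to the surface and on rhomboid proteases. Of 10 genes in these groups, 1 was called lower, beside 4.34% of all listed genes. Of the 10, 9 had a log2 ratio below 0 (8 after rescaling to equal FPKM sums), and the median was -0.22. Of the 13237 genes of at least 1 FPKM, 6711 lay below 0 (5774 after rescaling), with a median of -0.00415. The gene above 0 without rescaling was Rhbdf1, an iRhom gene, with a ratio of 1.15 (1.04 to 1.27). Adam8, a protease gene of leukocytes, was the gene called lower, with 54.1 against 10.8 FPKM and a ratio of 0.200 (0.181 to 0.220). Adam9 had 47.1 FPKM in WT against 45.4 FPKM without PU.1. Adam19 had a ratio of 0.648 (0.560 to 0.750), Adam15 of 0.714 (0.661 to 0.772) and Adam12 of 0.795 (0.733 to 0.863), which did not reach the threshold. The main ligand sheddases were nearer to their WT level, with Adam10 at 39.9 and 39.0 FPKM, a ratio of 0.977 (0.924 to 1.03), and Adam17 at 20.3 and 18.9 FPKM, a ratio of 0.932 (0.837 to 1.04).

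The relay from receptor to nucleus, of adaptor, RAS, MAP kinase and PI3 kinase genes, had the narrowest range of the 5 lists. Of 25 genes, 0 were called, where 4.34% of all listed genes were called lower and 2.32% higher. The log2 ratios of the 25 genes lay between -0.23 and 0.36 with a median of -0.00197. Akt1 had 125 FPKM in WT against 118 FPKM without PU.1, and Mapk3, the gene of ERK1, had 98.6 and 90.3 FPKM. Stat3, at the upper end, had 97.9 and 126 FPKM, a ratio of 1.29 (1.23 to 1.34).

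Feedback inhibitors of the pathway, several of which are transcribed when ERK signalling is active, were mostly above their WT level. Of 18 genes, 0 were called, where 4.34% of all listed genes were called lower and 2.32% higher. Of the 18, 15 had a log2 ratio above 0, and the median was 0.24. Among the genes of at least 1 FPKM, 49.3% were above 0 and the median was -0.00415. Dusp6, an ERK phosphatase gene, had 42.9 FPKM in WT against 64.0 FPKM without PU.1, a ratio of 1.49 (1.40 to 1.59). Errfi1, whose product binds and inhibits EGFR, had 74.0 and 82.9 FPKM, a ratio of 1.12 (1.07 to 1.18). Spry1, a Sprouty gene, had 32.4 and 44.4 FPKM, a ratio of 1.37 (1.27 to 1.48). Rescaling to equal FPKM sums moves all genes alike and put 17 of the 18 above 0, with 7463 of the 13237 genes of at least 1 FPKM. Markers of basal keratinocytes, endothelium and fibroblasts had medians of 0.23, 0.27 and 0.34. Those of suprabasal keratinocytes and melanocytes were lower, 0.15 and 0.16, and those of Schwann cells and skeletal muscle higher, 0.64 and 0.71. The part of these cell types in the levels of the feedback inhibitors was not tested.

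Genes that EGFR signalling can induce in keratinocytes did not share a direction. Of 20 genes, 8 had a log2 ratio above 0 and 12 below, and the median was -0.12, beside 49.3% above 0 among the genes of at least 1 FPKM. The 2 called lower and 0 called higher stand beside 4.34% and 2.32% of all listed genes. Plaur, the urokinase receptor, had 119 against 42.1 FPKM with a ratio of 0.355 (0.327 to 0.384), and Il1rn, the gene of an interleukin-1 receptor antagonist, had 37.8 against 8.54 FPKM with a ratio of 0.226 (0.172 to 0.294). Both are also genes of myeloid cells. The keratins of the wound edge did not share a direction either, with Krt17 at a ratio of 0.926 (0.908 to 0.945), Krt16 at 3297 FPKM in WT against 3978 FPKM without PU.1 and Krt6b at 1921 and 2304 FPKM. Vegfa, the endothelial growth factor, had the highest ratio of the list, 1.58 (1.20 to 2.09), at 13.2 and 20.8 FPKM.

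**Figure D4:**
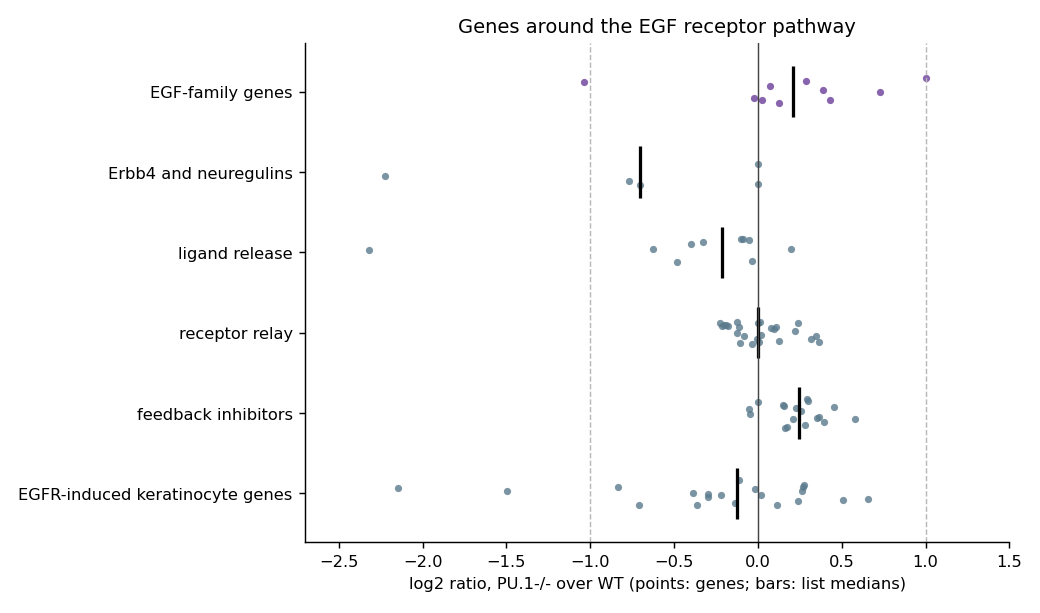
Log2 ratio (PU.1-/- over WT) of each gene in the EGF-family set and in the 5 lists around the pathway, with a bar for each list's median and dashed lines at 2-fold. Feedback inhibitors centre on 0.24 and the receptor relay on -0.00197, and Adam8, Nrg2, Il1rn and Plaur lie beyond the lower line. Erbb4 and Nrg3 are drawn at 0 because both of their values were raised to 0.1 FPKM.

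Leukocyte markers differed far more between the libraries than the EGF-family genes. Among all listed genes, 4.34% were called lower. Of 10 macrophage markers, 10 were called lower, their summed level fell from 730 to 6.46 FPKM, and Adgre1, C1qa, C1qb, C1qc and Tyrobp were listed at 0 in PU.1-/-. Of 8 mast cell markers, 7 were called lower, with sums of 742 and 14.2 FPKM, and Mcpt4, Fcer1a and Ms4a2 listed at 0, while Hdc kept 6.91 FPKM and Kit, which melanocytes also express, 5.77 FPKM. Of 9 neutrophil markers measured, 7 were called lower, with sums of 12489 and 3652 FPKM, and Retnlg, Ngp, Ltf and Csf3r listed at 0. Of 8 T cell markers, 7 were called lower from a sum of 8.83 FPKM to 1.20 FPKM, and Cd3e, Cd3d, Cd3g, Cd2, Il7r and Trat1 were listed at 0. Some of these calls rest on few WT reads, about 3 for Cd2, 7 for Cd3e and, with its shortest transcript, 3 for Ms4a2. The part of leukocytes in the lower level of Epgn was not tested. What remained of the neutrophil sum was nearly all S100a8, at 2129 FPKM, and S100a9, at 1516 FPKM, which stressed keratinocytes also make. The cell source of the remaining S100a8 and S100a9 was not tested. Areg, Hbegf and Ereg, ligands that leukocytes can make, were at or above their WT level in the library in which the macrophage marker sum was 6.46 FPKM. Which cells made these ligand transcripts in either library was not tested.

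Of 8 skeletal muscle markers, 2 were called higher and 8 had a log2 ratio above 0, with sums of 8457 and 14362 FPKM. Of all listed genes 2.32% were called higher, and of the genes of at least 1 FPKM 49.3% had a log2 ratio above 0. Fibroblast markers had a median log2 ratio of 0.34, with 8 of 8 above 0 and sums of 2831 and 3360 FPKM, and endothelial markers a median of 0.27, with 7 of 7 above 0 and sums of 156 and 186 FPKM. The median of the basal keratinocyte markers, 0.23, was near the median of 0.21 of the EGF-family genes. Relative to the basal median, Areg stood at 0.20, Ereg at 0.06, Hbegf at -0.10, Btc at 0.50, Egf at 0.77, Tgfa at -0.25, Erbb3 at 0.16, Erbb2 at -0.21 and Egfr at -0.16 on the log2 scale. The part of the cell make-up in these differences was not tested.

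**Figure D5:**
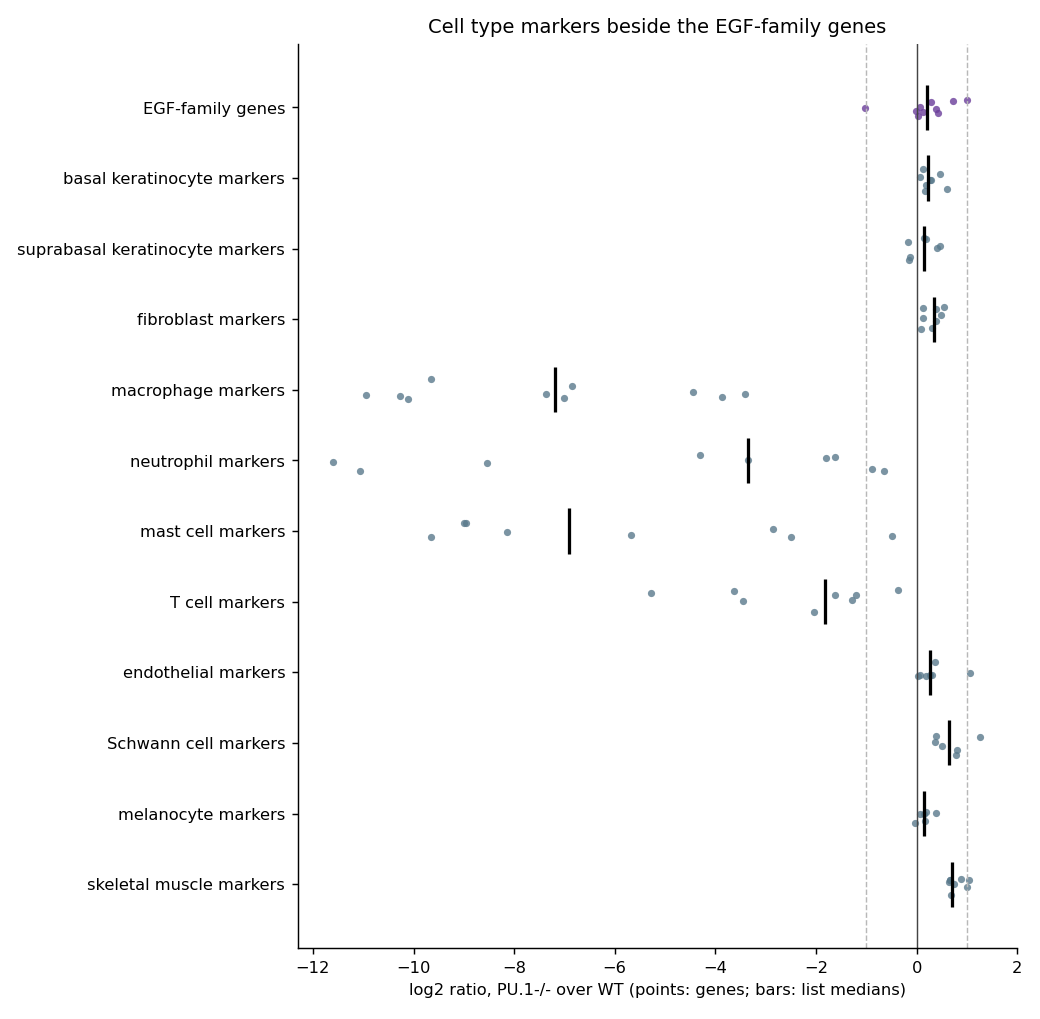
Log2 ratio (PU.1-/- over WT) of each gene in the EGF-family set and in 11 lists of cell type markers, with a bar for each list's median and dashed lines at 2-fold. The medians of macrophage and mast cell markers lie at -7.18 and -6.92, those of the EGF-family genes and basal keratinocyte markers at 0.21 and 0.23, and values below 0.1 FPKM were raised to 0.1, which limits the fall of genes listed at 0.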

How the data were processed

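Wounds of 1 WT and 1 PU.1-/- library were compared, grouped by the genotype in the labels. The authors made stranded mRNA libraries, read 75 bases from a single end, called bases with CASAVA 1.8.2, mapped to mm10 and deposited FPKM values. The methods name Cuffnorm 2.2.1 for these, the submitters' processing notes Cuffdiff 2.2.1, and which made the values is not settled. The notes also name TopHat2 2.1.1, Bowtie2 2.2.8 and SAMtools 0.1.18. For the annotation and any read filters the sources used here give nothing.

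Ratios were taken from the deposited FPKM values after raising values below 0.1 to 0.1, and genes were called at 2-fold over all 24346 symbols. With 1 library per genotype no test was possible and no p-values are given. Reads were estimated from the files: in genes with 1 RefSeq-linked GENCODE M21 transcript of at least 1000 nt, the product of FPKM and length less 200 nt piles up at the worth of 1 read, and 79.3% of 1614 WT values and 78.7% of 1545 PU.1-/- values of up to 10 reads lay within 0.15 of a whole number. The values of 1 read stood in a ratio of 1.15 between the libraries, found from 459 genes below 2 FPKM. Genes with several transcripts were given their shortest, which gives the widest interval. Intervals are exact Poisson for levels and exact binomial (Clopper-Pearson) for ratios.

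The genes and lists were chosen with earlier results of these data known. By rule, the text names the 10 genes, Spi1, Erbb4 and the neuregulins and, in the other pathway lists, genes past 2-fold with at least 1 FPKM and the 2 highest in WT. Of the cell type markers, the rule names those listed at 0 in PU.1-/-. Adam10, Adam12, Adam15, Adam17, Adam19, Rhbdf1, Krt17, Stat3, Spry1 and Vegfa were named after their values were seen. So were Xist, the markers S100a8, S100a9, Hdc and Kit, and the chromosome 5 neighbours. Of 10 neutrophil and 8 suprabasal markers, 9 and 7 were measured under these symbols. Gene positions and promoters are from RefSeq on GRCm38.p6, the assembly of mm10, in which all 10 genes were matched by symbol. Functions were tested on simulated data. Scripts ran on Python 3.11.15 with numpy 2.4.6 and pandas 2.3.3, scipy 1.17.1 gave the intervals, and plots were made in matplotlib 3.10.9.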

Additional observations from a re-analysis of the deposited data

How the results depend on the processing

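The ratios of the 10 genes were recomputed with other floors, pseudocounts, scalings and filters, and 68 of 69 values lay within the counting interval of the ratio as reported. The exception was Egf at a floor of 1 FPKM, where both values are raised to the floor and the ratio is 1. The WT over PU.1-/- ratio of Epgn ranged from 1.99 to 2.05 over 7 alternatives and was below 2 in 1, the rescaling to the same FPKM sum, which left 0 of the 10 genes called lower. The number called higher, 1 as reported, was 0 with a floor of 1 FPKM, with either pseudocount and with genes below 1 FPKM left out, and 2 (Egf and Btc) at a threshold of 1.5, where 5.79% of all genes were higher. At that threshold 9 of the 78 pathway genes were lower, where 7.67% of all genes were, and 1 was higher. The median log2 ratio of Erbb4 and the neuregulins, -0.70, was -0.42 with a pseudocount of 1 FPKM and 0 with a floor of 1 FPKM, which Erbb4, Nrg2 and Nrg3 reach in neither library.

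Over all genes, 1057 were called lower and 565 higher. A floor of 1 FPKM gave 463 and 164, a floor of 0.01 FPKM 1778 and 1220, a pseudocount of 1 FPKM 461 and 89, genes of at least 1 FPKM 589 and 226, and a threshold of 1.5 gave 1867 and 1410. The rescaling by sum put Tgfa above its WT level and raised the number of the 10 genes with a log2 ratio above 0 from 8 to 9. No paired analysis was possible because each genotype has 1 library. Depth limits Egf, Nrg2, Nrg3, Erbb4 and some leukocyte markers of low level, which rest on few reads. The difference between animals is unknown for every gene.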
